A study of Mus musculus with 15 samples.

Results

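The aquaporins examined here were Aqp1, Aqp3, Aqp8, Aqp9 and Aqp11, chosen by name from the platform annotation, each with 1 transcript cluster on the array. They are 5 of the 12 aquaporin genes with a cluster of their own, among 19938 such genes and 23410 tested clusters. Their log2 signals were compared across 15 arrays of TER119-positive cells, 1 array per sample, from fetal liver of FVB/NJ mouse embryos at E13.5, counted in days of gestation. TER119 is a surface antigen of maturing red cell precursors, and the cells were taken by magnetic beads against it, so each array reads a mixture and not a single cell type. The groups were 4 doubly mutant arrays (DKO, Klf3-/- Klf8gt/gt), 3 arrays without Klf3 (Klf3KO, Klf3-/-), 4 arrays with a gene trap in Klf8 (Klf8gt, Klf8gt/gt) and 4 wild-type arrays (WT). No further allele or treatment is named in the labels, and all groups share the strain, stage and sort. Litters were matched where the submitters could do so, without a statement of which arrays share one, and separate embryos per array are not stated either. A p-value here reflects only how much the samples of a group vary, and some of that variation may be technical.

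Aquaporins are membrane channels that let water through, and the aquaglyceroporins among them also pass glycerol and other small neutral solutes. In the mouse, Aqp1 and Aqp9 are known from definitive red cells, where Aqp1 carries water and Aqp9 is the main glycerol route, whereas Aqp3 and Aqp8 are known from primitive red cells of the yolk sac. Aqp11 is an unorthodox member that sits mostly in intracellular membranes, and Aqp8, Aqp9 and Aqp11 are also made by hepatocytes, which share the fetal liver with the red cell precursors. KLF3 and KLF8 are Kruppel-like zinc finger proteins that bind CACCC-type sequences and repress transcription, and KLF1 is the related activator of red cell genes.

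The group names stand for the labels. The Klf3 cluster read 11.37 ± 0.28 in DKO (n = 4) and 11.32 ± 0.14 in Klf3KO arrays (n = 3), against 10.27 ± 0.04 in Klf8gt and 10.27 ± 0.17 in WT arrays (mean log2 signal ± SD, n = 4 each). It was thus higher where the label gives Klf3 as lost, and its probes were not placed relative to the deleted segment, so it does not check the deletion and every direction under Klf3 loss rests on the labels. Klf8 read 7.29 ± 0.55 in DKO arrays and 8.71 ± 0.26 in Klf3KO arrays, lower with the trap (adjusted p = 0.0265 in limma), while in Klf8gt and WT arrays it lay below the array medians (6.28 to 6.41), where the trap could not be checked. Markers of TER119-positive erythroid cells, 9 of 10 listed genes measured, averaged between 12.03 and 12.64 per array, and none lay below the array medians in any group. Markers of hepatocytes (11 of 12 measured, 11 to 12.72) and macrophages (15 of 15 measured, 7.54 to 9.63) were present as well. By Y-linked genes and Xist, the 4 WT arrays were male, whereas DKO and Klf8gt held 2 males and 2 females each and Klf3KO 1 male and 2 females. DKO replicate 1 stood apart by its hepatocyte markers (11, against 12.09 to 12.13 in the other DKO arrays) and Klf8gt replicate 1 by its embryonic globin signal, and results that turn on either are given without it. These 2 are the arrays called apart below, but others also differed from their group. WT replicate 1 read 11.27 in embryonic globin signal, against 12.11 to 12.71 in the other WT arrays. DKO replicate 4 read 9.12 in macrophage markers, against 7.54 to 8.38 in the other DKO arrays. In bulk samples such as these, fewer cells of a type and less RNA per cell cannot be told apart.

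The 250 bases before the annotated start are shown for the members whose signals changed or moved with the globins, because KLF3, KLF8 and KLF1 bind CACCC-type sequences. Sequences are from RefSeq on GRCm38.p6, read 5′ to 3′ on the gene's strand, with CACCC or its reverse complement GGGTG in capitals. Aqp1 is at chr6:55336049-55336298 (plus strand), Aqp3 at chr4:41098184-41098433 (minus strand), and Aqp9 has 2 annotated starts, with windows at chr9:71163290-71163539 and chr9:71162634-71162883 (minus strand).
Aqp1: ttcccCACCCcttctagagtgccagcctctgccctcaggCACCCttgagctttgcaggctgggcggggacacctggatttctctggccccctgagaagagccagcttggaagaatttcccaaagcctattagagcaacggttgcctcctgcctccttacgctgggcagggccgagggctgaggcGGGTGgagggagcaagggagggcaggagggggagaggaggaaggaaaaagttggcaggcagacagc
Aqp3: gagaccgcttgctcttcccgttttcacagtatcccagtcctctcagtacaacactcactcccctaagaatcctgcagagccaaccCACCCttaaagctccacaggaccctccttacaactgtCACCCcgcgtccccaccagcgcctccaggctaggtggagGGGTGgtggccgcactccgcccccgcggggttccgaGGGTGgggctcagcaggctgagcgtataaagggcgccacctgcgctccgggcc
Aqp9, upstream start: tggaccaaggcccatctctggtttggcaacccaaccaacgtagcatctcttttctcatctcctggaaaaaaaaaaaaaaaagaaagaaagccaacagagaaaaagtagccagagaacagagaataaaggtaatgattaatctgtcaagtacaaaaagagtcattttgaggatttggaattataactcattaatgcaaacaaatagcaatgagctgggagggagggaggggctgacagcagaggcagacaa
Aqp9, downstream start: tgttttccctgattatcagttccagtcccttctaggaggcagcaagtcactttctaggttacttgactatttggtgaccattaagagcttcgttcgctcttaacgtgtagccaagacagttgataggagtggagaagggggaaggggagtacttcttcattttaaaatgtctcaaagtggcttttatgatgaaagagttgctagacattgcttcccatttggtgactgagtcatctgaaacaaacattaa
Aqp1 had 3 matches to CACCC on either strand, with first bases at -245, -211 and -66 from the start, and Aqp3 had 4, at -165, -128, -89 and -53. Neither Aqp9 window held these letters. The windows of Aqp11 and Aqp8, not shown, held 2 matches and 1. Of 32851 promoters of the same length, 52.0% held at least 1 match, so a match by itself is common. The looser CCNCNCCC, which can overlap CACCC, was found in 45.9% of promoters and had 3 matches at Aqp1, 2 at Aqp3 and 1 at the upstream start of Aqp9. GATAA, the core of the GATA1 motif, was found in 22.6% of promoters and in 1 of the 6 member windows, that of the downstream Aqp9 start.

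**Figure D1:**
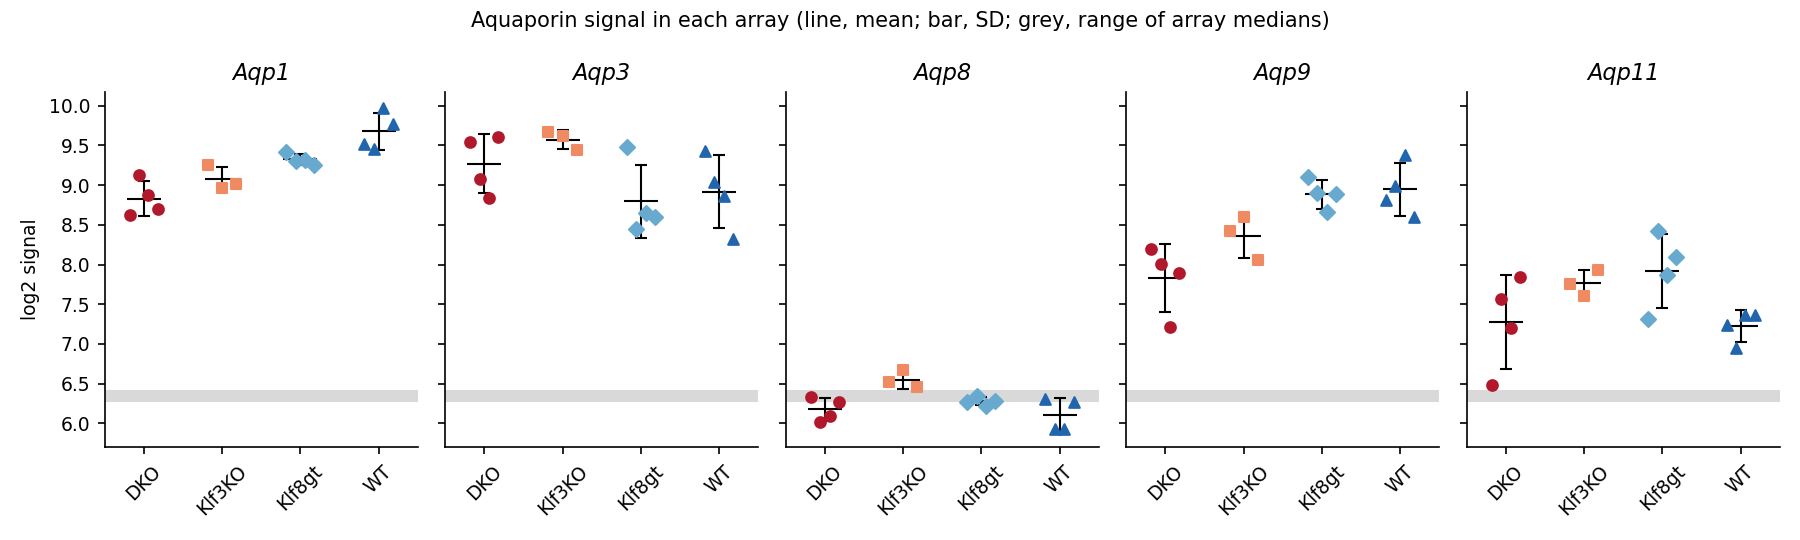
Log2 signal of each aquaporin (vertical axis) in every array by group (horizontal axis), with the group mean as a line, the SD as a bar and the range of array medians in grey. Aqp1 and Aqp9 sit lowest in DKO arrays, Aqp3 and Aqp8 highest in Klf3KO arrays, and most Aqp8 points lie within or below the grey band.

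The water channel Aqp1 and the glycerol channel Aqp9 fell in DKO arrays relative to WT arrays, whereas Aqp3, Aqp8 and Aqp11 did not pass the test. Of the 5 members, 2 were thus called lower and 0 higher, where 3.3% of all tested clusters were called in either direction and 1.78% lower. A call is an adjusted p under 0.05 in limma, with Benjamini-Hochberg adjustment over all 23410 tested clusters, and every adjusted p below is of that kind. The median difference over the members was 0.048 on the log2 scale, beside -0.021 over all tested clusters.

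Aqp1 signals were 8.63, 9.12, 8.87 and 8.70 in DKO arrays, 9.25, 8.96 and 9.02 in Klf3KO arrays, 9.42, 9.31, 9.32 and 9.25 in Klf8gt arrays, and 9.52, 9.45, 9.97 and 9.77 in WT arrays. All DKO arrays lay below all WT arrays, as did 4.75% of tested clusters, and below all Klf8gt arrays, as did 4.12%, and the Klf3KO arrays lay between, overlapping DKO only. The means were 8.83 ± 0.22 in DKO, 9.08 ± 0.15 in Klf3KO, 9.32 ± 0.07 in Klf8gt and 9.68 ± 0.24 in WT (SD). Against WT, Aqp1 fell by 0.84 ± 0.12 (SE) on the log2 scale in DKO arrays, which is 1.80-fold (adjusted p = 0.000972). The call held on leaving out any single array (adjusted p from 0.000616 to 0.00427). With 4 arrays against 4, an exact two-sided permutation test gave its smallest possible p, 0.0286.

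In Klf3KO arrays Aqp1 differed from WT by -0.60 ± 0.13, and the adjusted p of 0.0675 missed the threshold although the arrays did not overlap. That call appeared without DKO replicate 1 (adjusted p = 0.0461), without DKO replicate 2 (0.0396) and without both arrays that stood apart (0.0358), since all groups share the estimate of the spread. In Klf8gt arrays the difference from WT was -0.35 ± 0.12 (adjusted p = 0.287), again with no overlap, as for 2.89% of clusters in that direction. In the order of means DKO, Klf3KO, Klf8gt and WT, the neighbours Klf3KO and Klf8gt were not tested against each other, and no other pair of neighbours passed: DKO differed from Klf3KO by -0.24 ± 0.13 (adjusted p = 0.464). DKO arrays lay below Klf8gt arrays by 0.49 ± 0.12 (adjusted p = 0.0417), a narrow call described further on. The interaction of both genotypes, 0.11 ± 0.18 for Aqp1 (adjusted p = 0.818), gave a 95% interval of -0.28 to 0.50.

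Aqp9 signals were 8.20, 8.01, 7.21 and 7.90 in DKO arrays, 8.43, 8.60 and 8.06 in Klf3KO arrays, 9.10, 8.90, 8.66 and 8.88 in Klf8gt arrays, and 8.81, 8.98, 9.38 and 8.60 in WT arrays. DKO arrays were the lowest group and did not overlap Klf8gt or WT arrays, while Klf8gt and WT arrays covered about the same range. Means were 7.83 ± 0.43 in DKO, 8.36 ± 0.28 in Klf3KO, 8.89 ± 0.18 in Klf8gt and 8.95 ± 0.33 in WT (SD). Aqp9 fell by 1.12 ± 0.20 in DKO against WT, or 2.17-fold (adjusted p = 0.00503), the larger of the 2 falls called. Leaving out any single array left the call in place (adjusted p from 0.0026 to 0.0237). Klf3KO arrays differed from WT by -0.58 ± 0.22 (adjusted p = 0.508), and Klf8gt arrays by -0.06 ± 0.20, with a 95% interval of -0.49 to 0.37 (adjusted p = 0.905). DKO arrays differed from Klf3KO arrays by -0.54 ± 0.22 (adjusted p = 0.315).

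Without both arrays that stood apart, the DKO differences from WT were -0.78 for Aqp1 (adjusted p = 0.00229) and -1.24 for Aqp9 (0.00207), and with sex as a covariate they were -0.84 (0.00339) and -1.11 (0.0142). Macrophage markers moved in the same direction as both genes. Their list mean was 7.54 to 9.12 in DKO, 8.73 to 9.23 in Klf3KO, 8.86 to 9.40 in Klf8gt and 9.32 to 9.63 in WT arrays. In DKO against WT, 8 of 15 were called lower, beside 1.78% of tested clusters, and the list's median difference was -1.17. Cd5l had the largest fall, 2.54 ± 0.33, while Mertk, for example, was not called (-0.28 ± 0.24, adjusted p = 0.591). Only 1 of the 15 lay below the array medians. With that list mean as a covariate neither call stood: Aqp1 differed by -0.75 (adjusted p = 0.0779) and Aqp9 by -1.04 (0.124) between DKO and WT, in a fit that called 252 clusters in place of 772. Within groups, the slope on the macrophage list was not called for Aqp1 (0.08 ± 0.14 log2 per log2, adjusted p = 0.830) or Aqp9 (0.07 ± 0.23, 0.928), beside 0.85% of clusters. For Aqp9 this turned on 2 arrays: r with the list was 0.0818 over 15 arrays (permutation p = 0.828) and 0.613 without the 2 farthest, DKO replicates 1 and 4 (permutation p = 0.0161), while for Aqp1 it was 0.176 and 0.245 (permutation p = 0.698 and 0.424). The part of the macrophage markers in these falls was not tested beyond this.

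Over both Klf8 backgrounds, the groups labelled as lacking Klf3 (DKO and Klf3KO) were compared with those that keep it (Klf8gt and WT). Aqp1 fell by 0.55 ± 0.09 (adjusted p = 0.00267) and Aqp9 by 0.82 ± 0.15 (0.00496). These are 2 of 5 members, against 2.38% of tested clusters called and 0.931% called lower. The 7 Klf3-deficient arrays read at most 9.25 for Aqp1 and the 8 others at least 9.25, separated only in the third decimal; 0.299% of clusters were lower without overlap. For Aqp9 the groups met at 8.60. With the macrophage list mean as a covariate the differences were -0.50 for Aqp1 (adjusted p = 0.0673) and -0.78 for Aqp9 (0.0786).

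Between DKO and Klf8gt arrays, which share the trap, Aqp9 fell by 1.06 ± 0.20, or 2.08-fold (adjusted p = 0.00854), and Aqp1 fell by 0.49 ± 0.12, or 1.41-fold (0.0417). These were 2 of 5 members called, both lower, where 3.35% of clusters were called and 1.87% were lower. In this comparison same-numbered arrays deviated together, with correlations of 0.534, 0.114, 0.158 and 0.180 over all tested clusters, and with the replicate number as a block the adjusted p was 0.0585 for Aqp1 and 0.00975 for Aqp9. The Aqp1 call was lost in 21 of 29 alternatives, including without DKO replicate 1 (adjusted p = 0.0942), 3 (0.0817) or 4 (0.0572), without Klf3KO replicate 2 (0.0545) or 3 (0.0555), without Klf8gt replicate 1 (0.0526), 2 (0.104), 3 (0.093) or 4 (0.0813), and without WT replicate 1 (0.0511) or 4 (0.0534). The Aqp9 call was lost only with the macrophage covariate (-1.0, adjusted p = 0.114).

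**Figure D2:**
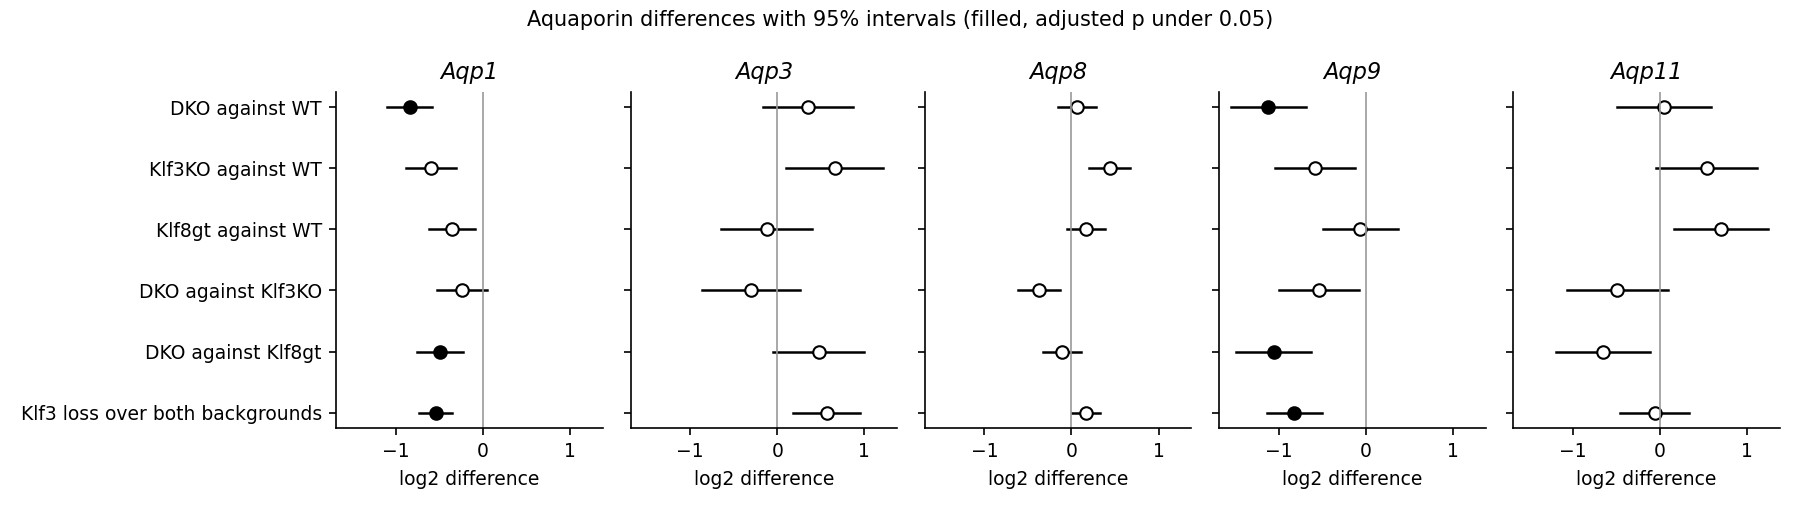
Log2 difference of each aquaporin (horizontal axis) in 6 comparisons (vertical axis), as the limma estimate with its 95% interval, filled where the adjusted p was under 0.05. Filled points occur only for Aqp1 and Aqp9, in DKO against WT, DKO against Klf8gt and Klf3 loss over both backgrounds, all to the left of 0.

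Aqp3, the aquaglyceroporin known from primitive red cells, read 9.54, 9.08, 8.84 and 9.61 in DKO arrays, 9.67, 9.62 and 9.44 in Klf3KO arrays, 9.47, 8.45, 8.65 and 8.60 in Klf8gt arrays, and 9.44, 9.04, 8.87 and 8.32 in WT arrays. Klf3KO arrays were uniformly high, and each other group spread over a wide range. The means were 9.27 ± 0.37 in DKO, 9.57 ± 0.12 in Klf3KO, 8.79 ± 0.46 in Klf8gt and 8.92 ± 0.46 in WT (SD). No difference passed: DKO against WT was 0.35 ± 0.24 (adjusted p = 0.496), Klf3KO against WT 0.66 ± 0.26 (0.558), and Klf8gt against WT -0.12 ± 0.24 (0.839). Klf3 loss over both backgrounds gave 0.57 ± 0.18 (adjusted p = 0.152), which passed the threshold without Klf8gt replicate 1 (0.68, adjusted p = 0.0296) and without both arrays that stood apart (0.63, 0.042).

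Aqp8, a water channel also known from primitive red cells, was dim. It read 6.33, 6.02, 6.09 and 6.27 in DKO arrays, 6.52, 6.67 and 6.46 in Klf3KO arrays, 6.27, 6.34, 6.22 and 6.29 in Klf8gt arrays, and 6.31, 5.93, 5.93 and 6.27 in WT arrays. Only in Klf3KO arrays did every value exceed its own array's median, and the DKO and WT means (6.18 ± 0.15 and 6.11 ± 0.21) lay below all array medians, so no fold is given. The differences were 0.07 ± 0.10 in DKO against WT (adjusted p = 0.812), 0.44 ± 0.11 in Klf3KO against WT (0.143) and -0.37 ± 0.11 in DKO against Klf3KO (0.179), the last 2 without overlap of arrays. Of all clusters, 5.45% were lower without overlap in DKO against Klf3KO.

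In Klf3KO against WT, 0 of the 5 members passed in limma and 4 had an unadjusted p under 0.05, where 0.585% of clusters were called and 7.83% had such an unadjusted p. Arrays did not overlap for 3 higher members (Aqp3, Aqp8 and Aqp11) and 1 lower (Aqp1), beside 14.5% of clusters in either direction, 8.79% higher and 5.7% lower. In Klf8gt against WT, 0 members and 0 of all clusters passed (0%), with 2 members and 13.4% of clusters at an unadjusted p under 0.05. Klf8gt replicate 1 sets that 0: without it 1683 of the 23410 clusters passed, and without both arrays that stood apart 2917 did. In DKO against Klf3KO, 0 members passed, beside 0.047% of clusters, with 2 members and 12.9% of clusters at an unadjusted p under 0.05. Klf3KO against WT shares WT arrays with Klf8gt against WT and Klf3KO arrays with DKO against Klf3KO, so their values are not independent of each other.

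Aqp11 read 6.48, 7.57, 7.21 and 7.84 in DKO arrays, 7.76, 7.60 and 7.93 in Klf3KO arrays, 7.32, 8.42, 7.86 and 8.10 in Klf8gt arrays, and 7.24, 6.94, 7.36 and 7.36 in WT arrays. DKO arrays spanned the widest range, and both single mutants had higher means than WT. The means were 7.27 ± 0.59 in DKO, 7.76 ± 0.17 in Klf3KO, 7.92 ± 0.47 in Klf8gt and 7.23 ± 0.20 in WT (SD). Differences from WT were 0.05 ± 0.25 in DKO (adjusted p = 0.955), 0.54 ± 0.27 in Klf3KO (0.678) and 0.70 ± 0.25 in Klf8gt (0.294). Without Klf8gt replicate 1 the last was 0.90 and passed (adjusted p = 0.0416), as did the DKO difference from Klf8gt (-0.85, 0.0474, against -0.65 and 0.179 with all arrays). That fit called 1683 of all clusters in Klf8gt against WT and 1741 in DKO against Klf8gt. Of the interaction tests, Aqp11 had the most negative, -1.19 ± 0.37 (unadjusted p = 0.00612, adjusted p = 0.208), and it also passed without Klf8gt replicate 1 (-1.39, 0.0457), in a fit that called 718 clusters for the interaction. Aqp8 had -0.54 ± 0.15 (unadjusted p = 0.00271, adjusted p = 0.177). With all arrays, 0 of 5 members passed in limma and 2 had an unadjusted p under 0.05, where 0.00427% of clusters passed and 14.4% had such an unadjusted p.

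The relation to the embryonic globins was examined within groups, since the groups may differ in both measures. The globin measure was the mean log2 signal of Hbb-bh1, Hba-x and Hbb-y, the embryonic beta-like and alpha-like chains of primitive red cells. It was 12.51, 13.40, 13.34 and 13.25 in DKO arrays, 11.77, 11.87 and 11.71 in Klf3KO arrays, 11.35, 12.50, 12.43 and 12.72 in Klf8gt arrays, and 11.27, 12.11, 12.23 and 12.71 in WT arrays. DKO arrays were highest with 1 array inside the range of Klf8gt and WT, and replicate 1 was the lowest array in the DKO, Klf8gt and WT groups. Correlations were computed after subtracting each group's mean, with p from 100000 two-sided permutations of arrays within groups.

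With the groups pooled, Aqp3 was lower in arrays that had more embryonic globin signal than their group's mean. Klf3KO arrays, whose globin signal spanned only 11.71 to 11.87, did not follow this. There the array lowest in globin signal was also lowest in Aqp3, at 9.44. Over 15 arrays, Pearson's r was -0.864 (permutation p = 0.00422) and Spearman's rho -0.871 (permutation p = 0.00188). Without the 2 arrays farthest from the median globin deviation, Klf8gt replicate 1 and WT replicate 1, r was -0.650 (permutation p = 0.130), so the relation rests on those arrays. Since replicate 1 was lowest in 3 groups, replicate means were also removed, which left r at -0.812 (replicate block, permutation p = 0.0019). That p comes from permuting what the block left, without refitting the block, and may be too small. The 8 Klf3-intact arrays include both Klf8gt replicate 1 and WT replicate 1. Within those 8 arrays r was -0.961 (exact permutation p = 0.00868), and within the 7 Klf3-deficient arrays it was -0.536 (exact permutation p = 0.479). The difference between those values was not tested. As a slope fitted beside genotype to every cluster, Aqp3 fell by 0.68 ± 0.11 per log2 unit of globin signal (adjusted p = 0.0204), where 2.9% of clusters had a called slope and 0.619% a negative one.

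The other members were not called: Aqp11 had r = 0.633 (permutation p = 0.026, n = 15, slope adjusted p = 0.100), Aqp1 0.285, Aqp8 -0.255 and Aqp9 -0.302. Without those 2 arrays, r was 0.690 for Aqp11 (permutation p = 0.106). Within Klf3-intact arrays the members other than Aqp3 had r between -0.284 (Aqp9) and 0.639 (Aqp11), and within Klf3-deficient arrays between -0.582 (Aqp8) and 0.786 (Aqp11). In all, 65 such relations were computed, 5 members by 13 lists.

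**Figure D3:**
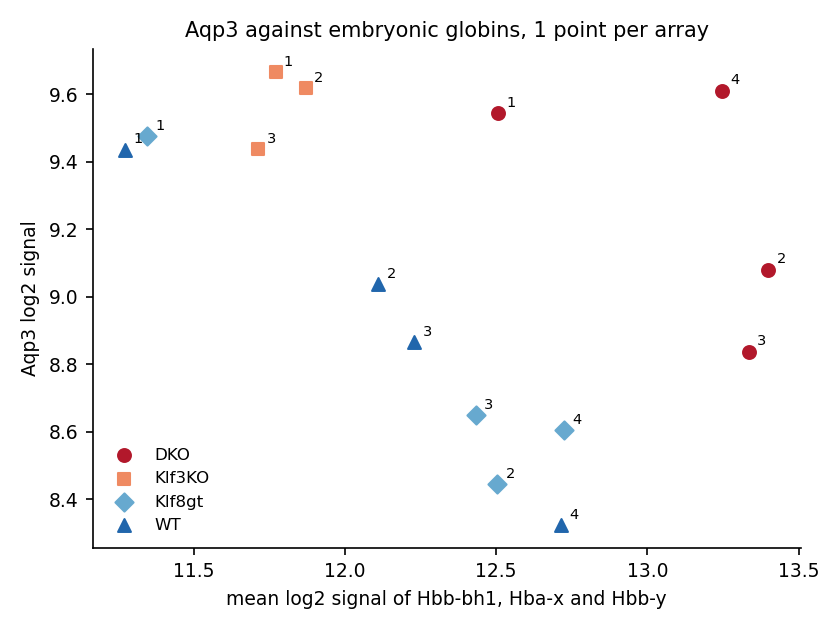
Aqp3 log2 signal (vertical axis) against the mean log2 signal of the 3 embryonic globins (horizontal axis), 1 point per array with its replicate number and group colours. Klf8gt and WT arrays run from replicate 1 at the upper left to lower signals at the right, and the DKO arrays lie to the right of most others at 8.84 to 9.61.

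With the globin mean as a covariate, Aqp3 passed in 3 comparisons. It rose by 1.06 ± 0.18 in DKO against WT (adjusted p = 0.00704), by 1.07 ± 0.17 in DKO against Klf8gt (0.00174) and by 0.76 ± 0.10 with Klf3 loss over both backgrounds (0.000521). The backgrounds in that fit were 1.32%, 9.11% and 2.99% of clusters. Klf3KO against WT gave 0.45 ± 0.15 (adjusted p = 0.176), beside 0.978%. Since DKO arrays hold the highest globin signal and overlap the other groups only in part, this fit extends the within-group slope beyond the shared range. In the same fit Aqp1 fell by 0.95 ± 0.16 in DKO against WT (adjusted p = 0.00763), Aqp9 differed by -0.92 ± 0.26 (0.116), and the Aqp11 interaction of -1.79 ± 0.36 passed (0.0119), beside 7.46% of clusters.

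Markers of other cells moved with Aqp3 as well. The mean of 8 endothelial markers, 7.85 to 9.19 per array, correlated with Aqp3 at r = -0.920 within groups (permutation p = 0.00146, rho = -0.932) and at -0.894 without its 2 farthest arrays (permutation p = 0.00675). Its slope was -0.88 ± 0.11 (adjusted p = 0.000765), where 8.68% of clusters had a called slope. Removing the endothelial or the hepatocyte mean was not planned beforehand. After the endothelial mean was removed, the correlation of Aqp3 with the globins was -0.287 (permutation p = 0.448). After the hepatocyte mean was removed it was -0.765 (permutation p = 0.00435), and after the macrophage mean -0.946 (permutation p = 0.00095). The p-values after removing a list mean come from permuting what was left, without refitting, and may be too small. Aqp3 also rose with the red cell channels and transporters (r = 0.723, permutation p = 0.00278, slope adjusted p = 0.0448, beside 4.52% of clusters). It had r = -0.624 with the hepatocyte list (permutation p = 0.0139) and 0.607 with the TER119-positive erythroid list (permutation p = 0.028). For the KLF1-activated genes r was 0.587 (permutation p = 0.0378). Slopes on those lists were not called (limma adjusted p = 0.0645, 0.0694 and 0.0818). Without the 2 farthest arrays of each list, r was -0.619, 0.379 and 0.307. The TER119-positive erythroid list shares Klf1, Alas2 and Epb42 with the KLF1-activated list, and Slc4a1 and Rhag with the channels and transporters. The part of the endothelial signal in the globin relation was not tested further.

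Aqp11 followed the hepatocyte markers. The mean of 11 such genes, secreted plasma proteins and liver enzymes such as Alb and Cps1, was 11 to 12.13 in DKO, 11.98 to 12.22 in Klf3KO, 12.01 to 12.72 in Klf8gt and 11.67 to 12.07 in WT arrays. Within groups, r with Aqp11 was 0.898 (permutation p = 0.00041), rho was 0.757 (permutation p = 0.00275), and r was 0.627 without the 2 farthest arrays, DKO replicate 1 and Klf8gt replicate 1 (permutation p = 0.0143). It was 0.937 within Klf3-intact arrays (exact permutation p = 0.00174, n = 8) and 0.891 within Klf3-deficient arrays (exact permutation p = 0.0556, n = 7). Aqp11 rose by 1.06 ± 0.15 per log2 unit of the list (adjusted p = 0.000334), where 13.4% of clusters had a called slope.

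With that list as a covariate, an alternative chosen after seeing the data, 5 of the 7 contrasts of Aqp11 became smaller in size and 2 larger. Klf8gt then differed from WT by 0.066 in place of 0.70, DKO from Klf8gt by 0.0085 in place of -0.65, and the interaction was -0.31 in place of -1.19, whereas Klf3 loss gave 0.17 in place of -0.06 and DKO against WT 0.074 in place of 0.048. The Aqp1 and Aqp9 falls in DKO against WT were -0.84 and -1.13 in the same fit (adjusted p = 0.000493 and 0.000918). Aqp11 fell along the TER119-positive erythroid list, by 2.06 ± 0.45 per log2 unit (r = -0.785, permutation p = 0.0127, adjusted p = 0.00608, beside 16.4% of clusters), and r was -0.310 without its 2 farthest arrays (permutation p = 0.384).

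**Figure D4:**
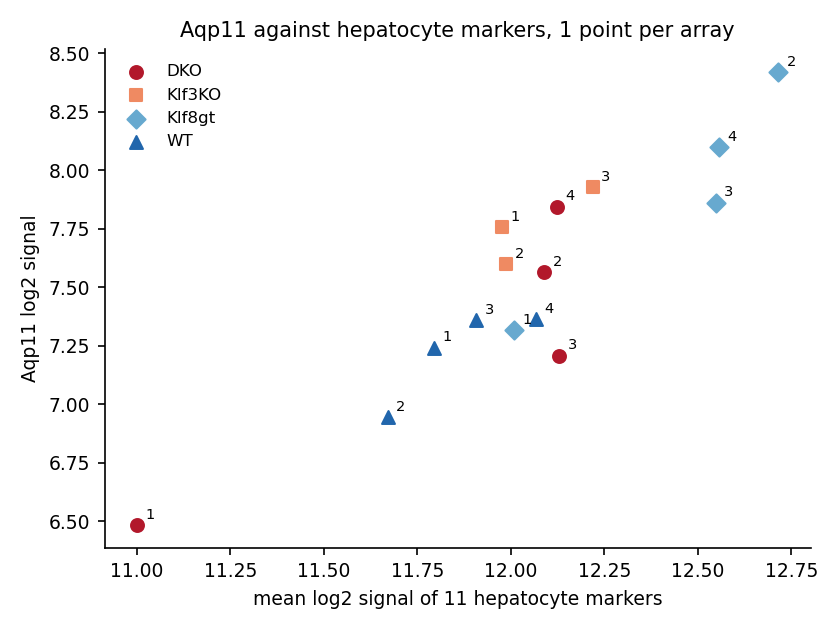
Aqp11 log2 signal (vertical axis) against the mean log2 signal of 11 hepatocyte markers (horizontal axis), 1 point per array with its replicate number. DKO replicate 1 is lowest on both axes at 11 and 6.48, and Klf8gt replicate 2 is highest at 12.72 and 8.42.

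Aqp9 moved the other way and followed the erythroid markers within groups. Its r with the TER119-positive erythroid list was 0.753 (permutation p = 0.00792, rho = 0.732) and 0.737 without the 2 farthest arrays (permutation p = 0.0376), and the slope of 1.54 ± 0.38 was called (adjusted p = 0.0125, beside 16.4% of clusters). The KLF1-activated list shares Klf1, Alas2 and Epb42 with the TER119-positive erythroid list, so relations with them are not independent. With the KLF1-activated genes r was 0.740 (permutation p = 0.00715, rho = 0.764, slope adjusted p = 0.0147, beside 16.9%), and 0.733 without its 2 farthest arrays (permutation p = 0.0432). With the hepatocyte list it was -0.532 (permutation p = 0.159). The erythroid list itself was lower in DKO arrays, at 12.22 ± 0.23, than in WT arrays, at 12.55 ± 0.09 (SD, n = 4 each), in the same contrast in which Aqp9 fell. Its median log2 difference was -0.34, with 1 of 9 genes called (Klf1, lower) and 7 at an unadjusted p under 0.05. Over all clusters in that contrast, 3.3% were called and 17.9% had such an unadjusted p. The part of this list in the fall of Aqp9 was not tested. Aqp1 had no called slope on any of the 13 lists, with adjusted p from 0.387 to 0.984.

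The genes most like each bright member over the 15 arrays were found among 18614 genes by Pearson's r, as a description of shared pattern. For Aqp1 they were Txnip (0.935), Gja4, Galnt1, Cd5l and Art3 (0.869), of which Cd5l is on the macrophage list and Gja4 and Art3 had mean signals below the array medians. For Aqp3 they were Adcy7 (0.939), Rhbdf2, Dctn6, Afg3l2 and E2f4 (0.862). For Aqp9 they were Hspbap1 (0.969), Ap5s1, Dcaf10, Rab18 and Btnl10 (0.957), and for Aqp11 Slc35f5 (0.980), Lmbrd2, Mmp19, Asl and Hsd17b11 (0.977). Aqp1 and Aqp9 correlated at 0.741 over the arrays and at 0.114 after group means were removed, so their likeness lay between groups rather than within them. Aqp3 and Aqp9 correlated at -0.204 over the arrays and 0.505 within groups.

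Of the other aquaporins, Mip, Aqp2, Aqp4, Aqp5, Aqp6, Aqp7 and Aqp12, 0 of 7 passed in limma in any of the 7 contrasts, with 0 to 3 at an unadjusted p under 0.05. By contrast, 0% to 3.35% of all clusters passed and 7.83% to 18.7% had such an unadjusted p. The 3 were in Klf8gt against WT, where no cluster passed and 13.4% had such an unadjusted p. The group means of Mip, Aqp4 and Aqp6 lay below all array medians in every group, as did those of Aqp12. Aqp7, a glycerol channel and the neighbour of Aqp3 on chromosome 4, read 6.44 ± 0.59 in DKO, 7.01 ± 0.16 in Klf3KO, 7.15 ± 0.31 in Klf8gt and 6.55 ± 0.19 in WT arrays (SD), in the same order of groups as Aqp11 apart from the lowest pair. Its interaction was -1.17 ± 0.33 (unadjusted p = 0.0032, adjusted p = 0.181).

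Among 12 measured red cell channels and transporters, only the urea transporter gene Slc14a1 passed. It fell by 0.67 ± 0.17 in DKO against Klf8gt (adjusted p = 0.046) and by 0.56 ± 0.13 with Klf3 loss over both backgrounds (0.0254), and differed by -0.59 ± 0.17 in DKO against WT (0.077). The list's median difference in DKO against WT was -0.24. Among 6 measured genes of glycerol metabolism only Gpd1 passed, which interconverts glycerol phosphate and dihydroxyacetone phosphate. It fell by 1.06 ± 0.13 in DKO against Klf8gt (adjusted p = 0.000326) and by 0.55 ± 0.10 with Klf3 loss over both backgrounds (0.00459). Against WT no Gpd1 difference passed: DKO gave -0.43 ± 0.13 (adjusted p = 0.102), Klf3KO -0.05 ± 0.15 (0.948) and Klf8gt 0.63 ± 0.13 (0.213). All DKO arrays lay below all WT arrays for Gpd1, and all Klf8gt arrays above them. Both falls of Gpd1 thus rest in part on higher Klf8gt signals. Of 11 measured KLF1-activated genes, Klf1 itself fell in DKO against WT, by 0.41 ± 0.11 (adjusted p = 0.0487). Of 13 erythroid maturation genes 3 fell there: Ypel4 by 1.28 ± 0.24, Trim58, a ubiquitin ligase of late erythroblasts, by 0.98 ± 0.24, and Rnf123 by 0.68 ± 0.16. None of these lists had a member called higher in DKO against WT. Over all clusters, 3.3% were called in DKO against WT and 1.78% were called lower. In DKO against Klf8gt these shares were 3.35% and 1.87%, and with Klf3 loss over both backgrounds 2.38% and 0.931%.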

How the data were processed

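The deposited table holds log2 signals of 35556 transcript clusters on 15 arrays. The authors' RNA came from TER119-positive cells bound to magnetic beads, per the labels' protocols, and the tools listed per the submitters' processing notes are Partek and RMA, whose settings are not given in the sources used here. Array medians were 6.28 to 6.41, and arrays correlated at 0.974 to 0.992. The 23410 clusters with a gene symbol in the platform annotation were tested, 1621 of them with several symbols, from which no gene was named. Signals were used as deposited in 1 limma fit (limma 3.58.1, R 4.3.3) with a mean per genotype, eBayes without trend and Benjamini-Hochberg adjustment at 0.05. The median standard error was 0.11 between groups of 4, and the number of arrays limits the precision. On data simulated for DKO against WT, 98 of 100 genes shifted by 1 and 99 of 100 shifted by 2 log2 units were called among 23410. The simulated noise was independent between genes, without the shifts that whole arrays share here. False calls are not given, so this recovery does not describe how the fit treats such arrays.

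Relations used Pearson's and Spearman's coefficients of deviations from group means, permuted within groups (Python 3.11.15, scipy 1.17.1). Members, 18 gene lists and tests were chosen with earlier results of these data known. Named genes were the members, list genes that passed (at most 4 a list and contrast) and the 5 most correlated genes per member. Replicate numbers were taken to pair arrays where every same-numbered correlation of deviations was over 0.1, which held only between DKO and Klf8gt, and the replicate block is given there. Alternatives were other normalizations, filters, eBayes settings, covariates and left-out arrays.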

Additional observations from a re-analysis of the deposited data

Results flagged for a closer look

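Hba-x, an embryonic alpha-like globin, read 10.74 in Klf8gt replicate 1, far below the 12.17 to 12.38 of the other 3 Klf8gt arrays. The gap was 0.870 of the group's range, above the 95% critical value of Dixon's test for 4 arrays. In all, 24 sets of 4 arrays were examined, each of 1 member or embryonic globin in 1 group, and chance marks about 1 in 20. Klf3KO arrays were too few to be examined. The sets share arrays, so they are not independent. The same array had the highest Aqp3 signal of its group, 9.47.

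For Aqp8, every DKO array lay below the Klf3KO mean and every Klf8gt array above the WT mean, so that the effect of the Klf8 trap without and with Klf3 differed by -0.54 ± 0.15 on the log2 scale (limma, unadjusted p = 0.00271, adjusted p = 0.177). For Aqp11, every DKO array lay below the Klf8gt mean and every Klf3KO array above the WT mean, and the effect of Klf3 loss with trapped and with intact Klf8 differed by -1.19 ± 0.37 (limma, unadjusted p = 0.00612, adjusted p = 0.208). Neither interaction passed the threshold over all clusters.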

How the results depend on the processing

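Each result was recomputed under 27 to 29 alternatives. The 2 calls in DKO against WT stood in all but the macrophage covariate fit (0), apart from Aqp9 with the globin covariate, where Aqp3 passed in its place. The 2 calls with Klf3 loss also became 0 with the macrophage covariate. In DKO against Klf8gt, 1 of 2 calls was left with all clusters of the table, arrays centred on medians, quantile normalization, array weights, both groups only, sex or hepatocyte covariates, and without both arrays apart, 0 with the macrophage and 4 with the globin covariate, and 1 to 2 without single arrays. With the replicate block it was 1 (Aqp9), and the block changed no other call. Array weights gave 2 calls in Klf3KO against WT, 2 in Klf8gt against WT and 2 interactions, and leaving out both arrays apart gave 1 each. Klf3KO against WT had 1 with the hepatocyte covariate, and the interaction 1 with the globin covariate. Leaving out single arrays gave 0 to 1 in those 3 comparisons. No alternative gave a call in DKO against Klf3KO.

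The number of members correlated with the globins, at a permutation p under 0.05 after Benjamini-Hochberg adjustment over the 5 relations, was 1, and 2 with Hba-x alone, 0 without the 2 farthest arrays, 0 with the endothelial mean removed, 0 in Klf3-deficient arrays and 0 to 2 without single arrays. Sign changes of r, none of a called relation, were 0.00854 for Aqp8 without the 2 farthest arrays (-0.519 to 0.0206 without single arrays), 0.140 for Aqp9 and -0.0504 for Aqp11 with the hepatocyte mean removed, and -0.144 for Aqp1 and 0.410 for Aqp9 with the endothelial mean removed.

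Log2 differences that changed sign were likewise not called in the fit reported. For Aqp11 they were -0.0022 (quantile) and -0.49 (globin covariate) in DKO against WT, 0.016 (macrophage) in DKO against Klf3KO, 0.0085 (hepatocyte) in DKO against Klf8gt, and 0.35 (macrophage) and 0.17 (hepatocyte) with Klf3 loss. Its highest value in DKO against WT was 0.82, with the macrophage covariate (adjusted p = 0.204). With the globin covariate Aqp3 had 0.61 in DKO against Klf3KO and an interaction of 0.61, and Aqp1 an interaction of -0.014. With the hepatocyte covariate, Klf8gt against WT gave 0.30 for Aqp3 and 0.23 for Aqp9. Without single arrays, Aqp11 ranged over -0.14 to 0.31 in DKO against WT and -0.16 to 0.075 with Klf3 loss, the Aqp3 interaction over -0.36 to 0.044, and Klf8gt against WT over -0.35 to 0.051 for Aqp3 and -0.17 to 0.085 for Aqp9. The causes were not tested. Aqp8, near the array medians, had no value under the filter on median signal. The counts over all clusters in DKO against WT were 772, but 252 with the macrophage covariate, 308 with the globin covariate, 1983 with the hepatocyte covariate, 295 with both groups only, 2260 without both arrays apart, and 382 (without WT replicate 3) to 1389 (without DKO replicate 1) without single arrays. In DKO against Klf8gt they were 785, against 198, 2132, 1260, 188 and 1245 in the same order, 1280 with array weights, and 393 (without Klf8gt replicate 4) to 1777 (without DKO replicate 4). In Klf8gt against WT, array weights gave 4081, and with Klf3 loss the count was 557, against 311 and 1338 with the macrophage and hepatocyte covariates and 868 with array weights.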

Other observations

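Other gene groups moved in DKO against WT. Of 7 mesenchymal markers 2 rose, the collagen genes Col1a1 by 0.86 ± 0.16 (adjusted p = 0.00793) and Col1a2 by 0.58 ± 0.13 (0.0245), and of 10 early progenitor genes Hmga2 rose by 0.53 ± 0.13 (0.0426). In limma, 0 of 11 hepatocyte (0), 0 of 10 granulocyte and myeloid (1), 0 of 8 endothelial (1) and 0 of 4 megakaryocyte markers (0) passed, with the number at an unadjusted p under 0.05 in parentheses. Of the 3 embryonic globins 0 passed and 3 had an unadjusted p under 0.05, with Hbb-bh1 at 1.33 (adjusted p = 0.0698). Over all clusters in this contrast, 3.3% passed and 17.9% had such an unadjusted p.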
